A study of Mus musculus with 8 samples.

Results

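Collagens, laminins and fibulins are the proteins of the extracellular matrix, integrins are the receptors by which cells hold on to it, and the matrix metalloproteinases and Adamts enzymes are proteases that cut or process it. The genes described here are those whose symbols name a numbered collagen, laminin, fibulin, matrix metalloproteinase or Adamts gene or begin with the integrin stems Itga and Itgb, each represented by its brightest single-symbol probeset, a probeset being the group of array probes for 1 gene. They were 60 of 14995 genes. The mean level of 49 of them over all arrays lay above the 30th percentile of all probesets, a log2 value of 2.07, and these were tested among 11444 genes. The 60 comprised 8 fibrillar collagens, 1 collagen IV gene, 12 other collagens, 4 laminins, 1 fibulin, 9 integrin alpha chains, 5 integrin beta chains, 11 matrix metalloproteinases and 7 Adamts proteases. A further 2 genes, Itgb1bp1 and Itgb3bp, match by symbol only. Itgb1bp1 encodes a protein that binds the cytoplasmic tail of integrin beta 1, and Itgb3bp a protein of the centromere.

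RNA came from pools of 2-cell mouse embryos, with 26 embryos in a pool on average and 1 Affymetrix array per pool. The mothers of all pools were C57BL/6 females given 5 IU of eCG and hCG, and embryos were washed out of the oviduct 46 to 48 hours after hCG. The groups differ by the father: 3 pools were sired by KDM1A transgenic males (KDM1A TG), 2 by their non-transgenic littermates (nonTG) and 3 by C57BL/6 males. The transgene encodes the histone demethylase KDM1A, and the study concerns histone methylation in developing sperm. The sources used here give no promoter for the transgene, and the labels give no genotype for the embryos. Nothing says whether pools of 1 group had different fathers, so the p-values measure pool-to-pool spread that could be technical.

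Matrix proteins are secreted. Collagen I, the main protein of connective tissue fibres, is a heterotrimer of the Col1a1 and Col1a2 chains, collagen III is made from Col3a1, and both come mainly from fibroblasts and smooth muscle cells. Laminins are alpha, beta and gamma heterotrimers of basement membranes, and in the early mouse embryo laminin chains and beta 1 integrins are made before implantation. Integrins are pairs of 1 alpha and 1 beta chain. Metalloproteinases are held in check by the Timp inhibitors, and cross-linked collagen needs the chaperone Serpinh1, prolyl hydroxylases and lysyl oxidases.

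The promoters of 5 members are shown. Of these, 4 (Col1a2, Col3a1, Col6a1 and Mmp7) are among the 5 members with the widest ranges between pools. Itgb1 was added as an integrin beta chain made in the early embryo. The RefSeq promoter table used here matched 43 of the 60 members, and Col1a1 was not among them. Each runs 5′ to 3′ on the gene's strand from 250 bases before to 50 bases after the RefSeq start of the gene in GRCm38.p6. Capitals mark matches to 4 motifs on either strand: TATAAA for the TATA box, GGGCGG for the GC box, CCAAT for the box of that name and TGANTCA for AP-1, where N is any base. The windows are Col1a2 at chr6:4505368-4505667 on the plus strand, Col3a1 at chr1:45311288-45311587 on the plus strand, Col6a1 at chr10:76725995-76726294 on the minus strand, Mmp7 at chr9:7691840-7692139 on the plus strand and Itgb1 at chr8:128685404-128685703 on the plus strand.
Col1a2: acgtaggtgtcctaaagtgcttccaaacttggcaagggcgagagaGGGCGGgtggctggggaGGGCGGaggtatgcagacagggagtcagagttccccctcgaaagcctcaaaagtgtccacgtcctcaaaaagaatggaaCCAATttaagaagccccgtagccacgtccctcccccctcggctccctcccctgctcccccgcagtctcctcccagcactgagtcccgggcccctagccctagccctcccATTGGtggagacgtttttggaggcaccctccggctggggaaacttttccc
Col3a1: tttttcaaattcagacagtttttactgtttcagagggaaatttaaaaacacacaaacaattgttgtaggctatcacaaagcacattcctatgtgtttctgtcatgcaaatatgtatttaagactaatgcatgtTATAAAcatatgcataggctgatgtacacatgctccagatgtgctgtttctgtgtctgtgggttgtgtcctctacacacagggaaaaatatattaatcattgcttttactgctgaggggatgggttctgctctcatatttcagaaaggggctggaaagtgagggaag
Col6a1: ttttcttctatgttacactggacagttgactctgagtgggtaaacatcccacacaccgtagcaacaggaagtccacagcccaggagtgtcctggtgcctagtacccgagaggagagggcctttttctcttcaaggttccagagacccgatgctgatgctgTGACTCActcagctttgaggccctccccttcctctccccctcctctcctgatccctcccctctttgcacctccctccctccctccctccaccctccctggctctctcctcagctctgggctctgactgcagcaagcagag
Mmp7: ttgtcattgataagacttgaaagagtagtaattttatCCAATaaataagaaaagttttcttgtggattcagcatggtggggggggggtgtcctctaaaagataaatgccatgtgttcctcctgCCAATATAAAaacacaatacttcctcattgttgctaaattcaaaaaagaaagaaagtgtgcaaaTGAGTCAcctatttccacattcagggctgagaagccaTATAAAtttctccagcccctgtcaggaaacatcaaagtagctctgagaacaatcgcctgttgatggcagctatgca
Itgb1: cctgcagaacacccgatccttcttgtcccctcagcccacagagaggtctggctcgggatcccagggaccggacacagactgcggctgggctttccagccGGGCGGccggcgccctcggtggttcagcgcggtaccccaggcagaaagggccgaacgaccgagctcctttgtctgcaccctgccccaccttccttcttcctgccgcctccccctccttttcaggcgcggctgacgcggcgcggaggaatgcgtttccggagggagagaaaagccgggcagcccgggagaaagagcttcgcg
Mmp7 held TATAAA 26 and 123 bases before the start, and the match to CCAAT 127 bases before it shares 1 base with the more distant of them. It also held CCAAT 213 bases and the AP-1 match TGAGTCA 63 bases before the start. Col6a1 held TGACTCA 90 bases before the start, Col3a1 held TATAAA 117 bases before it, and Itgb1 held GGGCGG 151 bases before it. Col1a2 held GGGCGG 188 and 205 bases and CCAAT 109 bases before the start, and CCAAT on the other strand from the start base on. The AP-1 motif occurred in 7 of the 48 windows of 43 matched members (14.6%) and in 7.81% of 32851 windows of all genes. GGGCGG occurred in 26 of 48 (54.2%) and in 35.7% of all, CCAAT in 14 of 48 (29.2%) and in 37.4% of all, and TATAAA in 7 of 48 (14.6%) and in 13.6% of all. The median GC content was 59.0% in the members' windows and 52.7% in all. A match is a run of letters and was not tested as a site.

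Values are log2 expression summaries as deposited, so a difference of 1 is a 2-fold difference. Over all probesets the KDM1A TG arrays 1 and 3 were wider, with interquartile ranges of 2.38 and 2.604, against 1.87 to 2.09 in the other 6 arrays. Of the oocyte markers 12 of 16 were tested, with list means of 4.98 to 5.70 in KDM1A TG, 4.37 to 4.98 in nonTG and 4.79 to 5.72 in C57BL/6 pools, and of the 2-cell markers 8 of 9, with means of 3.84 to 4.36, 3.29 to 3.98 and 3.62 to 4.41 in the same groups. Markers of cells that could come from the mother's tract were also measured. All 18 stromal and muscle markers were tested and averaged 4.21, 3.95 and 5.46 in KDM1A TG, 4.79 and 3.71 in nonTG and 3.93, 3.98 and 3.39 in C57BL/6 pools. Oviduct epithelium markers (18 of 20 tested) averaged 6.37, 5.65 and 6.33, then 6.15 and 6.01, then 5.54, 6.06 and 5.33 in the same groups. No deposited value was 0.

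No collagen, laminin, integrin or matrix protease gene passed limma's test in any comparison. Between KDM1A TG and C57BL/6 pools 0 of 49 passed at an adjusted p under 0.05, against 0.725% of all 11444 genes. At an unadjusted p under 0.05 there were 6 higher (12.1% of all genes were) and 0 lower (2.1% of all genes were). Between nonTG and C57BL/6 pools 0 of 49 passed (0.131% of all genes), with 2 higher and 1 lower at an unadjusted p under 0.05 (4.61% and 3.62% of all genes). Between KDM1A TG and nonTG pools 0 of 49 passed (0.0437% of all genes), with 3 higher and 0 lower unadjusted (4.97% and 1.43% of all genes). The comparisons share arrays, so they are not independent of each other.

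With so few arrays the intervals were wide. The median half-width of the members' 95% intervals was 0.65 for KDM1A TG against C57BL/6 and 0.73 for each comparison with nonTG pools. Intervals reached beyond a 2-fold change in at least 1 direction for 27 of 49 members in KDM1A TG against C57BL/6, 31 in nonTG against C57BL/6 and 27 in KDM1A TG against nonTG. For those members a 2-fold change in that direction is not excluded by the interval. Fewer cells of a type in a pool and less RNA per cell cannot be told apart in these data.

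Col1a1, the chain present in more copies in collagen I, had the smallest p of the members in KDM1A TG against C57BL/6 pools. It stood at 5.78, 5.49 and 6.85 in KDM1A TG, 6.16 and 2.70 in nonTG and 4.61, 5.31 and 4.22 in C57BL/6 pools. All 3 KDM1A TG pools lay above all 3 C57BL/6 pools, and the nonTG pools took the second highest and the lowest place of the 8. The log2 change of KDM1A TG against C57BL/6 was 1.33 (SE 0.41, 95% interval 0.51 to 2.14, adjusted p = 0.107), a 2.51-fold difference. Against nonTG it was 1.60 (SE 0.46, adjusted p = 0.281), and for nonTG against C57BL/6 it was -0.28 (adjusted p = 0.869). The changes that involve nonTG pools rested on single arrays. Without nonTG replicate 1 the KDM1A TG against nonTG change was 3.33 (adjusted p = 3.8e-05) and the nonTG against C57BL/6 change was -2.01 (adjusted p = 0.0366), and without nonTG replicate 2 they were -0.12 and 1.45 (adjusted p = 0.997 and 0.412). In those fits the lone nonTG array is assumed to vary like the other groups. The KDM1A TG against C57BL/6 change passed the threshold without C57BL/6 replicate 2 (1.62, adjusted p = 0.0132) and without KDM1A TG replicate 1 (1.46, adjusted p = 0.0464), and was 0.92 without KDM1A TG replicate 3 (adjusted p = 0.815).

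Col1a2, the other chain of collagen I, stood at 7.20, 6.93 and 8.63 in KDM1A TG, 8.71 and 6.16 in nonTG and 7.03, 7.09 and 5.65 in C57BL/6 pools. Its groups overlapped, with KDM1A TG replicate 3 and nonTG replicate 1 highest. The log2 change of KDM1A TG against C57BL/6 was 1.0004 (SE 0.39, adjusted p = 0.238), and that of nonTG against C57BL/6 was 0.85 (SE 0.44, adjusted p = 0.628). A second Col1a2 probeset gave 0.61 and 0.12. Col3a1, the chain of collagen III, had 4.59, 4.60 and 5.26 in KDM1A TG, 4.69 and 3.64 in nonTG and 4.19, 4.20 and 3.09 in C57BL/6 pools. The KDM1A TG pools lay above the C57BL/6 pools without overlap (log2 change 0.99, SE 0.34, adjusted p = 0.161). In RefSeq order Col3a1 is next to Col5a2 on chromosome 1, and Col5a2, a chain of the minor fibre collagen V, had a log2 change of -0.16 in the same comparison (adjusted p = 0.82). The remaining fibrillar collagens had log2 changes of 0.07 (Col5a3), 0.00 (Col2a1, the chain of cartilage collagen) and -0.54 (Col27a1) in KDM1A TG against C57BL/6, and none passed. Col2a1 stood at 2.59 and 2.49 in nonTG pools, below 2.91, 3.85 and 3.14 in KDM1A TG and 3.28, 3.50 and 3.11 in C57BL/6 pools. Its log2 change was -0.76 for nonTG against C57BL/6 (adjusted p = 0.578) and 0.76 for KDM1A TG against nonTG (adjusted p = 0.775).

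**Figure D1:**
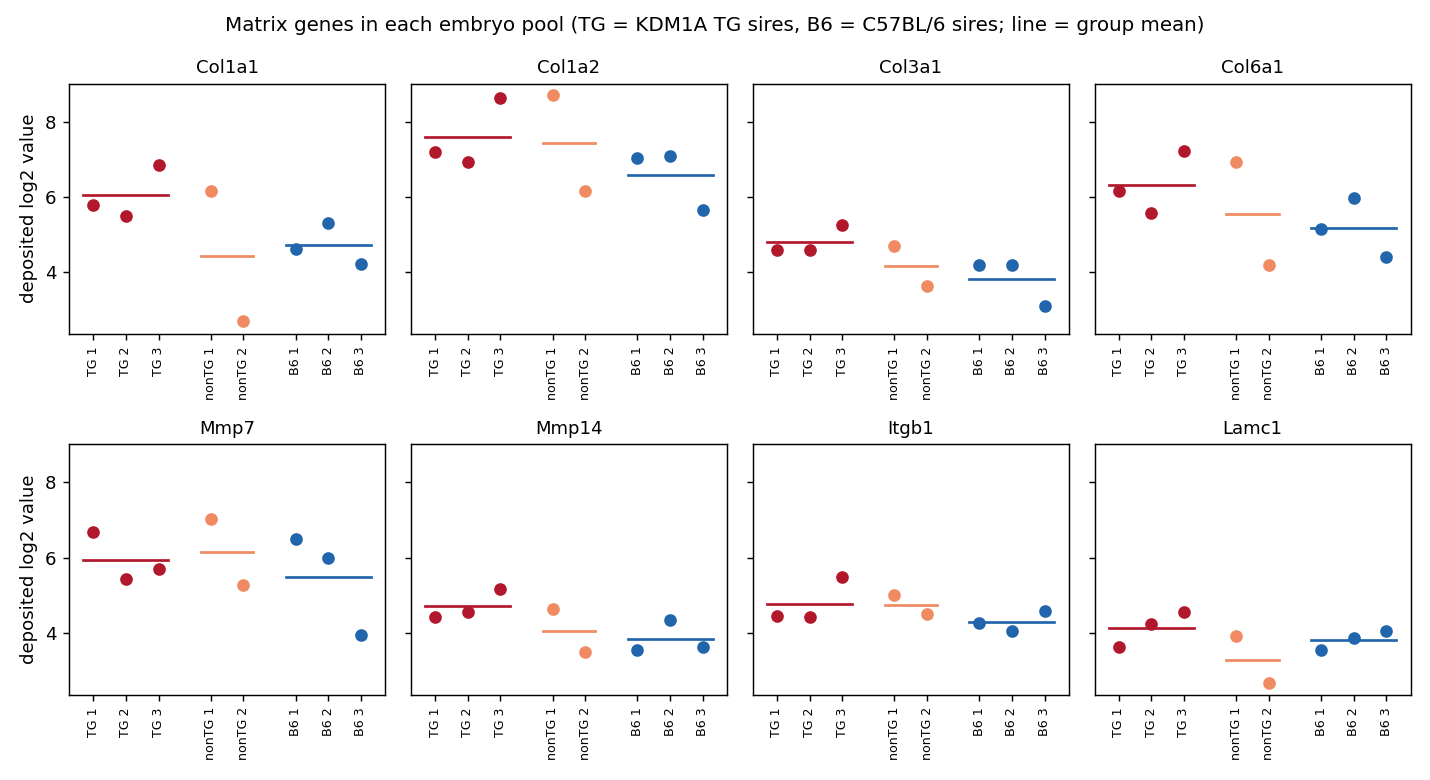
Deposited log2 value (y axis) of 8 matrix genes in each of the 8 embryo pools (x axis), with 1 point per array and a line at each group mean. Col1a1, Col1a2, Col3a1 and Col6a1 are high in KDM1A TG replicate 3 and nonTG replicate 1, and Col1a1 is lowest, at 2.70, in nonTG replicate 2.

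Collagen VI forms beaded filaments around cells, and Col6a1 is 1 of its obligatory chains. Col6a1 stood at 6.16, 5.57 and 7.21 in KDM1A TG, 6.92 and 4.18 in nonTG and 5.15, 5.96 and 4.41 in C57BL/6 pools. The groups overlapped, and the order of the pools again had KDM1A TG replicate 3 and nonTG replicate 1 on top. The log2 change of KDM1A TG against C57BL/6 was 1.14 (SE 0.39, adjusted p = 0.168), and it was 1.53 (adjusted p = 0.0185) without C57BL/6 replicate 2. A second Col6a1 probeset gave 0.51. Its neighbour on chromosome 10, Col6a2, encodes another chain of the same filament and had a change of 0.04 (adjusted p = 0.95), with values of 3.46, 3.80 and 4.53 in KDM1A TG, 4.26 and 3.82 in nonTG and 4.11, 3.71 and 3.83 in C57BL/6 pools. The change of Col6a1 was not matched in size by Col6a2, and the difference between the 2 genes was not tested.

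The other collagens of this class split in direction. In KDM1A TG against C57BL/6 pools 4 of 11 had a log2 change above 0 and 7 below, with a median of -0.28. Col14a1, a collagen that sits on fibre surfaces, had 2.73, 2.98 and 3.44 in KDM1A TG, 3.54 and 2.77 in nonTG and 2.49, 2.65 and 2.39 in C57BL/6 pools. Both the KDM1A TG and the nonTG pools lay above the C57BL/6 pools, with changes of 0.54 (adjusted p = 0.441) and 0.65 (adjusted p = 0.658). Col9a3, a chain of the cartilage collagen IX, had 2.60, 2.39 and 2.19 in KDM1A TG, 3.15 and 3.11 in nonTG and 2.11, 3.29 and 3.45 in C57BL/6 pools. It differed most from nonTG, where the KDM1A TG pools lay below both nonTG pools (-0.74, adjusted p = 0.775). Col8a1, a short-chain collagen of vessels, was lower in all KDM1A TG than in all C57BL/6 pools (-0.49, adjusted p = 0.47). Col12a1, Col6a4, Col6a6, Col9a2, Col23a1 and Col25a1 had log2 changes of -0.42 to 0.04 in KDM1A TG against C57BL/6. Collagen IV, the network of basement membranes, was represented by Col4a3 alone, whose mean of 1.96 lay under the filter level. Col4a1 and Col4a2 were not analysed here.

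All 4 laminin chains had a log2 change above 0 in KDM1A TG against C57BL/6 (0.11 to 0.69) and against nonTG (0.21 to 0.86), and 1 of 4 in nonTG against C57BL/6. None of the 4 passed. Over all genes 64.9%, 65.4% and 53.2% had a change above 0 in these comparisons. Among genes above the median level of all probesets, as all of the laminins but Lama4 were, 75.4%, 73.9% and 56.2% did. Lamc1, the gamma 1 chain found in most laminins, stood at 3.63, 4.24 and 4.56 in KDM1A TG, 3.91 and 2.66 in nonTG and 3.55, 3.87 and 4.05 in C57BL/6 pools. It was lowest in nonTG replicate 2, and its change was 0.86 (SE 0.38, adjusted p = 0.77) against nonTG and 0.32 (adjusted p = 0.64) against C57BL/6. Lamb1, the beta 1 chain, had 3.91, 3.58 and 4.62 in KDM1A TG, 3.51 and 3.12 in nonTG and 3.80, 3.45 and 3.87 in C57BL/6 pools. The KDM1A TG pools lay above both nonTG pools (0.72, adjusted p = 0.775) and overlapped with C57BL/6. Lamb2, the beta 2 chain, had 3.44, 3.27 and 4.39 in KDM1A TG, 3.83 and 2.96 in nonTG and 3.27, 3.22 and 2.54 in C57BL/6 pools, with a change of 0.69 against C57BL/6 (SE 0.34, adjusted p = 0.34). Lama4, an alpha chain of vessel walls, had a change of 0.11. Fbln1, a fibulin that binds laminin and fibronectin, had 4.09, 3.59 and 3.82 in KDM1A TG, 4.003 and 2.74 in nonTG and 3.09, 3.54 and 3.14 in C57BL/6 pools. All 3 KDM1A TG pools of Fbln1 lay above all 3 C57BL/6 pools (0.58, adjusted p = 0.416). Lama1 and Lama5 were not analysed here.

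No integrin chain passed in any comparison. Of 8 alpha chains 3 had a change above 0 and 5 below in KDM1A TG against C57BL/6, from -0.50 to 0.39, and 5 beta chains ran from -0.53 to 0.49. Itgb1, the partner of most alpha chains, had 4.46, 4.41 and 5.48 in KDM1A TG, 5.02 and 4.49 in nonTG and 4.25, 4.06 and 4.58 in C57BL/6 pools. It overlapped between groups, at 0.48 for KDM1A TG against C57BL/6 (adjusted p = 0.49). Itgav, the alpha chain of vitronectin receptors, had 4.65, 3.88 and 5.11 in KDM1A TG, 4.86 and 4.05 in nonTG and 4.23, 4.04 and 4.19 in C57BL/6 pools. Its change was 0.39 (adjusted p = 0.56), and the same 2 arrays, KDM1A TG replicate 3 and nonTG replicate 1, were highest as for Itgb1. Itgb5, a beta chain that pairs with Itgav, had 4.94, 4.83 and 5.60 in KDM1A TG, 4.78 and 4.29 in nonTG and 4.50, 4.26 and 5.14 in C57BL/6 pools. All KDM1A TG pools lay above both nonTG pools (0.58, adjusted p = 0.845).

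Itgb8, which pairs with Itgav and activates latent TGF-beta, was the integrin with the smallest p in nonTG against C57BL/6. It stood at 3.66, 3.66 and 3.67 in KDM1A TG, 4.13 and 4.56 in nonTG and 3.34, 3.66 and 3.80 in C57BL/6 pools. Both nonTG pools lay above all others, by 0.75 against C57BL/6 (SE 0.36, adjusted p = 0.578), and the log2 change of KDM1A TG against nonTG was -0.68 (adjusted p = 0.787). Itgb6, an epithelial beta chain, and Itgae, a chain of intraepithelial lymphocytes, were lower in every KDM1A TG than in every C57BL/6 pool (-0.53, adjusted p = 0.444, and -0.50, adjusted p = 0.46). Their means over the arrays, 2.39 and 2.48, lay close to the filter level of 2.07. The leukocyte chains Itgal and Itgax and the beta chain Itgb2 had log2 changes of 0.05, -0.36 and -0.29 in that comparison, and Itga2, Itga7, Itga9 and Itga11 of 0.11, -0.22, -0.12 and -0.48. Itga7, a laminin receptor of muscle, had 2.72, 2.74 and 3.03 in KDM1A TG, 3.34 and 3.37 in nonTG and 2.72, 3.18 and 3.23 in C57BL/6 pools, so nonTG was above both others (KDM1A TG against nonTG -0.52, adjusted p = 0.847). Itga5, the fibronectin receptor chain, had a mean of 1.68 under the filter level, with 1.34, 1.13 and 1.91 in KDM1A TG, 1.94 and 2.10 in nonTG and 1.61, 1.94 and 1.48 in C57BL/6 pools. Itga6 was not analysed here.

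**Figure D2:**
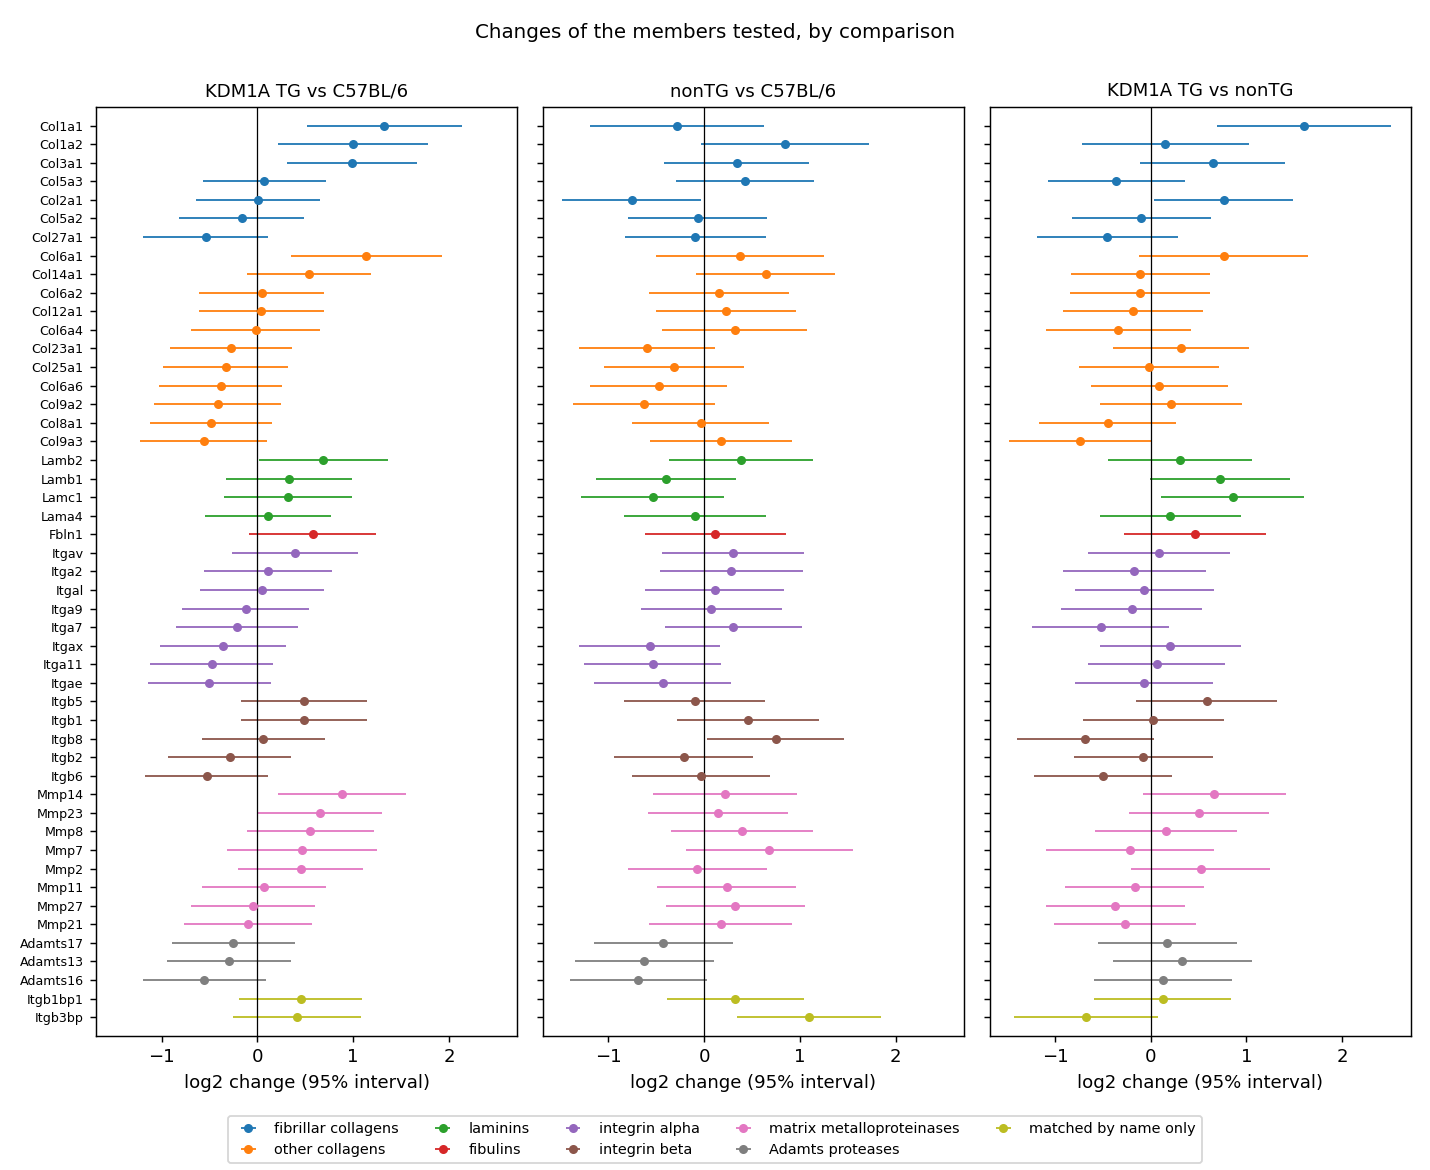
Log2 change (x axis) with its 95% interval for the 49 members tested (y axis, grouped and coloured by role) in 3 comparisons, KDM1A TG against C57BL/6, nonTG against C57BL/6 and KDM1A TG against nonTG. In the first, Col1a1 is at 1.33, and the intervals of 43 of 49 members include 0.

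Matrix metalloproteinases had 6 of 8 members above 0 in KDM1A TG against C57BL/6 (64.9% of all genes were) and 7 of 8 in nonTG against C57BL/6 (53.2% of all genes were). No metalloproteinase passed the threshold. Mmp14, a membrane-bound protease that cleaves collagen I and activates Mmp2, had 4.43, 4.57 and 5.17 in KDM1A TG, 4.64 and 3.48 in nonTG and 3.55, 4.34 and 3.63 in C57BL/6 pools. All KDM1A TG pools lay above all C57BL/6 pools (log2 change 0.88, SE 0.34, adjusted p = 0.224). Mmp7, matrilysin of epithelia, had 6.69, 5.44 and 5.69 in KDM1A TG, 7.04 and 5.27 in nonTG and 6.50, 5.98 and 3.94 in C57BL/6 pools. Its groups overlapped, with changes of 0.46 (adjusted p = 0.562) and 0.68 (adjusted p = 0.689) against C57BL/6 in KDM1A TG and nonTG. A second Mmp7 probeset gave -0.10 and 0.73. In RefSeq order on chromosome 9 Mmp7 lies next to Mmp20, which was under the filter level, and Mmp20 next to Mmp27, which had changes of -0.05 and 0.32. Mmp23, a membrane-tethered enzyme, had 5.37, 4.33 and 5.16 in KDM1A TG, 4.68 and 4.22 in nonTG and 4.24, 4.60 and 4.08 in C57BL/6 pools (0.65, adjusted p = 0.357). Mmp2, gelatinase A, had 2.89, 2.90 and 3.50 in KDM1A TG, 2.92 and 2.23 in nonTG and 2.94, 2.49 and 2.50 in C57BL/6 pools (0.45 against C57BL/6, adjusted p = 0.51). Mmp8, Mmp11 and Mmp21 had changes of 0.55, 0.07 and -0.10. Mmp9 was not analysed here.

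Of 7 Adamts proteases 3 were tested, and all 3 had a change below 0 against C57BL/6 in both other groups. Among all genes at or below the median level of all probesets, where these 3 lie, 36.0% (KDM1A TG) and 45.2% (nonTG) had a change above 0. Adamts13, which cuts von Willebrand factor, had 2.02, 2.89 and 2.39 in KDM1A TG, 2.14 and 2.07 in nonTG and 2.69, 3.07 and 2.43 in C57BL/6 pools. It was below C57BL/6 in both nonTG pools (-0.63, adjusted p = 0.669). Adamts16 had 1.89, 2.33 and 2.11 in KDM1A TG, 2.20 and 1.75 in nonTG and 2.44, 2.64 and 2.91 in C57BL/6 pools, below C57BL/6 without overlap in both groups (-0.55, adjusted p = 0.42, and -0.69, adjusted p = 0.631). Adamts17 had changes of -0.25 and -0.42. These values lie close to the filter level of 2.07. In the centromere gene Itgb3bp, which belongs by symbol only, nonTG pools were above C57BL/6 pools (3.96, 3.21 and 3.39 in KDM1A TG, 4.12 and 4.28 in nonTG and 3.08, 3.88 and 2.35 in C57BL/6). Its change of 1.09 in nonTG against C57BL/6 (SE 0.38, adjusted p = 0.318) had the smallest p of all members there, and it was 1.48 (adjusted p = 0.0456) without C57BL/6 replicate 2. Itgb1bp1 was above C57BL/6 without overlap in both groups, by 0.45 and 0.33.

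The 49 members tested had changes on both sides of 0 in each comparison. In KDM1A TG against C57BL/6 28 of 49 had a change above 0 (57.1%, against 64.9% of all genes) and the median change was 0.05 (0.18 over all genes). In nonTG against C57BL/6 27 of 49 were above 0 (55.1%, against 53.2%) with a median of 0.12 (0.04 over all genes), and in KDM1A TG against nonTG 26 of 49 (53.1%, against 65.4%) with a median of 0.06 (0.16 over all genes). Pools of KDM1A TG lay above all C57BL/6 pools for 6 members and below for 5 (14.5% and 5.34% of all genes). The counts were 6 and 7 for nonTG against C57BL/6 (15.4% and 9.41% of all genes) and 4 and 5 for KDM1A TG against nonTG (16% and 6.38% of all genes).

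The sign of the change went with the level of the gene. Among the 29 members whose mean lay above the median level of all probesets, 23 were above 0 in KDM1A TG against C57BL/6 (79.3%, against 75.4% of all genes at that level) with a median of 0.45 (0.30 over all genes). Among the 20 dimmer members 5 were above 0 (25%, against 36.0%) with a median of -0.21 (-0.14 over all genes). In nonTG against C57BL/6 19 of the 29 brighter members were above 0 (65.5%, against 56.2% of all genes at that level). Of the 20 dimmer members 8 were (40%, against 45.2%). In KDM1A TG against nonTG the counts were 20 of 29 (69.0%, against 73.9%) and 6 of 20 (30%, against 42.0%). KDM1A TG arrays 1 and 3 had a wider spread of values, and its part in these patterns was not tested. Without those 2 arrays, which leaves a single KDM1A TG array assumed to vary like the other groups, Col1a1, Col6a1 and Col1a2 had log2 changes of 0.77, 0.39 and 0.35.

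The members that varied most within a group were collagen I and VI genes and Mmp7. The within-group SD on the log2 scale was 1.24 for Col1a1, 1.13 for Col6a1, 1.12 for Col1a2 and 1.11 for Mmp7, each above the 95th percentile of all genes, as 4 of 49 members were (8.16%, against 5.01% of all genes). Col3a1 followed at 0.58, and the lowest was Col8a1 at 0.16. The median was 0.40 for the members and 0.36 for all genes. The 2 nonTG pools, which share the sire group, differed most in these genes. Of 49 members 37 were higher in nonTG replicate 1 than in nonTG replicate 2 (75.5%, against 51.9% of all genes), and 10 were higher by over 1 log2 unit (20.4%, against 5.65% of all genes). The difference was 3.46 for Col1a1, 2.74 for Col6a1, 2.55 for Col1a2, 1.77 for Mmp7 and 1.38 for Itga2. It was 1.26 for Fbln1, 1.24 for Lamc1, 1.16 for Lama4, 1.15 for Mmp14 and 1.05 for Col3a1.

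**Figure D3:**
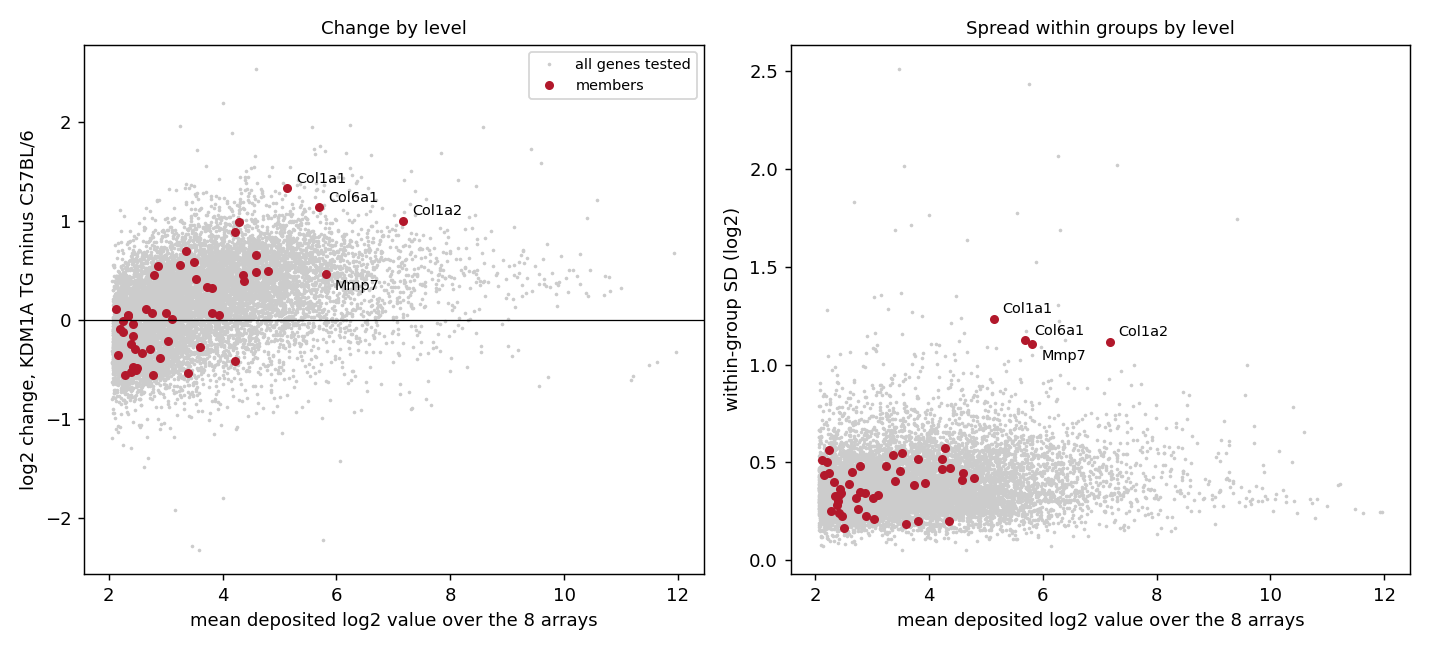
Log2 change of KDM1A TG against C57BL/6 (left, y axis) and within-group SD on the log2 scale (right, y axis) against the mean deposited log2 value over the 8 arrays (x axis) for all 11444 genes (grey) and the 49 members (red). The SDs of Col1a1, Col1a2, Col6a1 and Mmp7, from 1.11 to 1.24, stand above those of the other members, which reach 0.58.

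A part of the matrix genes had the same 2 arrays highest. KDM1A TG replicate 3 alone was the highest array for 28.6% of the members (26.1% of all genes), and nonTG replicate 1 for 16.3% (7.56% of all genes). KDM1A TG replicate 3 and nonTG replicate 1 were the 2 highest arrays for 13 of 49 members (26.5%, against 6.29% of all genes), a pattern picked after the values were seen. The 13 were Col12a1, Col14a1, Col1a1, Col1a2, Col3a1, Col6a1, Col6a2, Itga2, Itgav, Itgb1, Lamb2, Mmp14 and Mmp8, and 13 of 18 stromal and muscle markers had the same 2 arrays highest. The stromal and muscle marker mean was 5.46 in KDM1A TG replicate 3 and 4.79 in nonTG replicate 1, and 3.39 to 4.21 in the other arrays. With that mean as a covariate the log2 change of KDM1A TG against C57BL/6 was 0.10 for Col1a1, -0.24 for Col1a2, 0.40 for Col3a1, -0.06 for Col6a1 and 0.38 for Mmp14. With the oviduct marker mean instead, Col1a1, Col1a2 and Col6a1 had changes of 0.54, 0.18 and 0.17. Each covariate was estimated from the same 8 arrays, and the stromal and muscle list itself holds the matrix genes Dcn, Lum and Mgp. A smaller change with that covariate therefore cannot tell stromal cells from matrix genes that vary together. The part of stromal, muscle or oviduct cells in the changes was not tested.

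**Figure D4:**
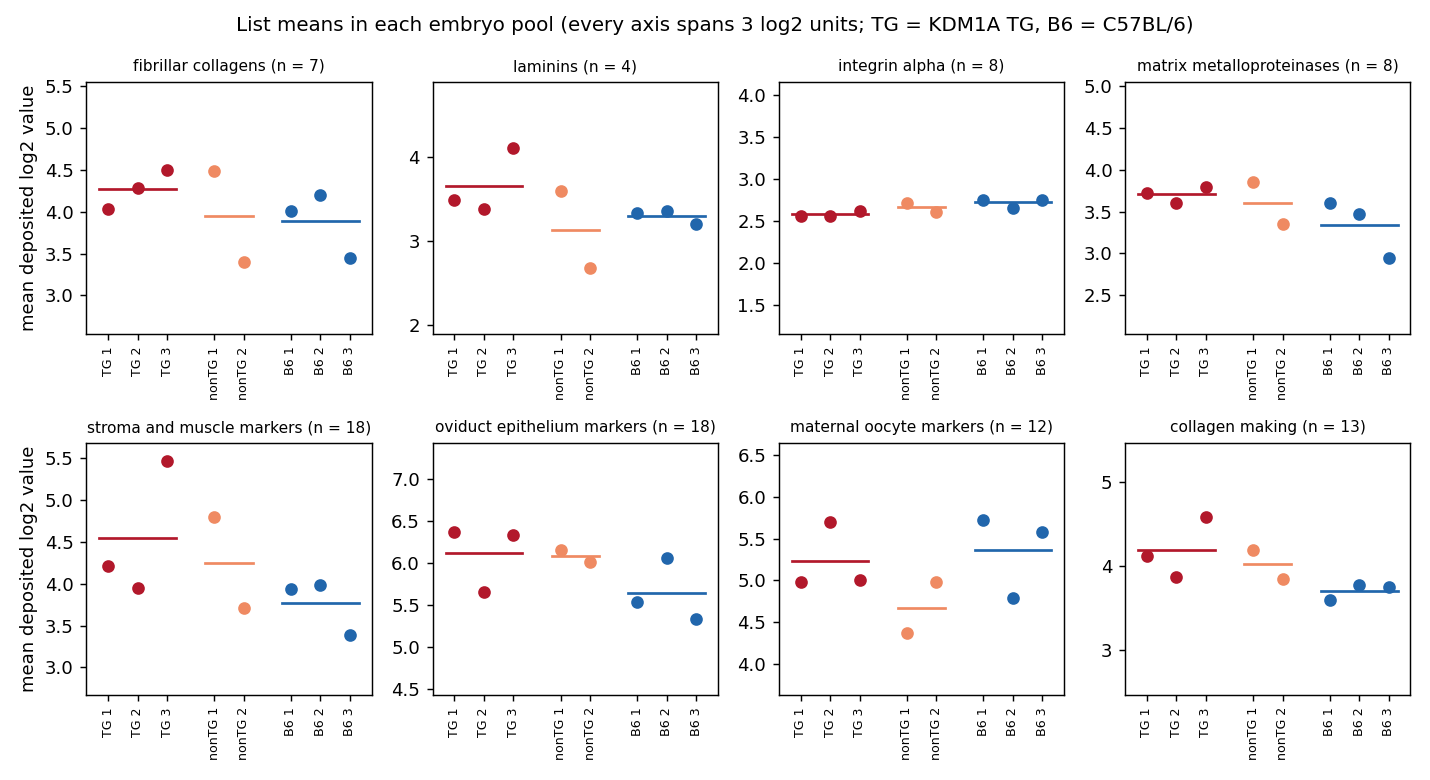
Mean deposited log2 value (y axis, 3 log2 units on every axis) of 8 gene lists in each of the 8 embryo pools (x axis), with a line at each group mean. The stromal and muscle markers reach 5.46 in KDM1A TG replicate 3 and 4.79 in nonTG replicate 1, the fibrillar collagens 4.49 in each of those arrays, and the integrin alpha chains stay between 2.55 and 2.75 in all.

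Genes that work with the matrix had a few members past the threshold in KDM1A TG against C57BL/6 pools and none in the other comparisons. Timp3, an inhibitor of metalloproteinases that is held in the matrix, rose 2.59-fold (log2 change 1.37, SE 0.33, adjusted p = 0.0225). It had 3.37, 3.97 and 4.47 in KDM1A TG, 3.90 and 3.47 in nonTG and 2.28, 2.84 and 2.56 in C57BL/6 pools, and both other groups lay above C57BL/6 without overlap. Bgn, the small proteoglycan biglycan that binds collagen, rose 2.61-fold (1.38, SE 0.35, adjusted p = 0.0374), with 6.07, 5.39 and 7.26 in KDM1A TG, 6.31 and 5.50 in nonTG and 4.45, 5.57 and 4.55 in C57BL/6 pools. Bgn overlapped between groups, since C57BL/6 replicate 2 was above KDM1A TG replicate 2. Actn1, an actinin that links integrins to actin, rose 2.43-fold (1.28, SE 0.34, adjusted p = 0.0471), with 5.46, 5.02 and 6.45 in KDM1A TG, 5.21 and 4.78 in nonTG and 4.03, 4.96 and 4.09 in C57BL/6 pools. These 3 calls did not hold without KDM1A TG replicate 3, where the changes were 1.11, 0.87 and 0.88 (adjusted p = 0.507, 0.802 and 0.801). Nor did they hold without C57BL/6 replicate 1 or 3 or after quantile normalization (adjusted p = 0.166, 0.401 and 0.378 for Timp3, Bgn and Actn1). With the stromal marker mean as a covariate the changes were 1.04, 0.60 and 0.70 (adjusted p = 0.387, 0.754 and 0.744). In the same order the adjusted p was 0.419, 0.672 and 0.65 with the oviduct marker mean and 0.167, 0.435 and 0.417 after cyclic loess. Bgn has 2 probesets, and with the mean of probesets its change was 1.31 (adjusted p = 0.0832). Actn1 also missed the threshold in that setting (adjusted p = 0.0652). Without KDM1A TG replicates 1 and 3, which leaves a single KDM1A TG array, the changes of Timp3, Bgn and Actn1 were 1.41, 0.53 and 0.66. With the filter at the 50th percentile Bgn and Actn1 had adjusted p = 0.0706 and 0.072. Bgn and Actn1 also missed the threshold without either nonTG pool (adjusted p = 0.0563 and 0.062), and Actn1 without KDM1A TG replicate 1 (adjusted p = 0.0727).

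Most genes of the 4 partner lists had a change above 0 in KDM1A TG against C57BL/6, where 64.9% of all genes did and the median of all genes was 0.18. Most of these list genes had a mean above the median level of all probesets. At that level 75.4% of all genes had a change above 0, with a median of 0.30. Of matrix partners such as fibronectin and nidogen 10 of 12 had a change above 0 with 1 passing, of collagen-making genes 12 of 13 with 0 passing, of protease inhibitors and activators 7 of 8 with 1 passing, and of integrin adaptors and other matrix receptors 22 of 24 with 1 passing. Their median changes were 0.42, 0.50, 0.63 and 0.50. Over all genes 0.725% passed in this comparison. Among collagen-making genes Serpinh1, the collagen chaperone, had 4.01, 3.67 and 4.61 in KDM1A TG, 4.13 and 2.73 in nonTG and 3.22, 3.08 and 3.41 in C57BL/6 pools (0.86, adjusted p = 0.237). Ppib, a prolyl isomerase of the collagen folding complex, had a change of 0.90 and Pcolce, an enhancer of procollagen processing, one of 0.83 (adjusted p = 0.217 and 0.245). In nonTG against C57BL/6 Timp3, Bgn and Ppib had changes of 1.12, 1.05 and 0.94 without passing (adjusted p = 0.262, 0.392 and 0.438). The stromal and muscle markers, of which all 18 had a change above 0 and 2 passed in KDM1A TG against C57BL/6, lay above 0 beside these lists, and their part was not tested.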

How the data were processed

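Pools of 2-cell embryos were measured on Affymetrix arrays, 1 per pool, and grouped by the labels as KDM1A TG (3), nonTG (2) and C57BL/6 (3). The deposited log2 values are the authors' expression summaries per probeset. Per the submitters' processing notes, R 3.1.0, oligo, RMA and limma were used, with no role given. The sources used here give no background step and no filter before deposit. Without scanner files no value is called above or under background, and the number of arrays limits the precision.

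The platform annotation gave a single symbol for 15745 of the 22961 probesets, several for 1320 and none here for 5896. Each gene was taken by its brightest single-symbol probeset (several existed for 5 members), and tested where its mean exceeded log2 2.07, the 30th percentile over probesets. The limma 3.58.1 fit (R 4.3.3; lmFit, then eBayes) took the 3 group means from all 8 arrays, with two-sided contrasts and Benjamini-Hochberg adjustment over 11444 genes at 0.05. Within-group SDs are residual SDs about the group means. The step was tested on simulated data. Promoters and gene order came from RefSeq of GRCm38.p6, where all 60 members were found by gene identifier in the gene table and 43 in the promoter table.

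Members, partner and marker lists, tests and alternatives were chosen with earlier results of these data known. Named genes are those that passed, the 6 with the smallest p on each side per comparison, the 4 brightest per role, the 5 with the widest range, a list of early embryo genes and 3 partners per list and comparison. No set test was run. Alternatives changed the filter, the scaling, the array weights, the variance model, the probeset per gene, the samples in the fit, a replicate block, marker covariates or the arrays left in.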

Additional observations from a re-analysis of the deposited data

How the results depend on the processing

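In KDM1A TG against C57BL/6, the number of members past the threshold was 1 of 60 without the filter (Col1a1, adjusted p = 0.0463). In that setting 138 of all 14995 genes passed. The number of members was 6 of 49 with array weights (Col1a1, Col6a1, Col3a1, Mmp14 and Mmp23 higher, Col27a1 lower), where 1694 of all 11444 genes passed. Leaving out single arrays gave 0 to 2, and 0 to 1 in each of the other comparisons. It was 0 under every other alternative run. The median member change relative to all genes, -0.14 in this comparison, was 0.15 with the filter at the 50th percentile, 0.041 after quantile normalization, 0.034 after cyclic loess and 0.035 without KDM1A TG replicates 1 and 3, and ran from -0.27 to 0.01 when single arrays were left out. For nonTG against C57BL/6 it ran from -0.30 to 0.14 around 0.08, and for KDM1A TG against nonTG from -0.26 to 0.11 around -0.10. The causes were not tested.

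Over all genes, 83, 15 and 5 passed in KDM1A TG against C57BL/6, nonTG against C57BL/6 and KDM1A TG against nonTG. The counts were 1694, 47 and 3 with array weights, 5, 1 and 2 with arrays quantile normalized or scaled by cyclic loess, 151, 13 and 5 with median centring, 138, 44 and 7 without the filter and 53, 9 and 2 with the filter at the 50th percentile. They were 128, 30 and 9 with trend and robust variance, 73, 6 and 5 with only the groups compared, 57, 10 and 3 with the mean of probesets, 33, 44 and 10 with the stromal covariate, 7, 4 and 4 with the oviduct covariate, and 1, 6 and 3 without KDM1A TG replicates 1 and 3. Leaving out single arrays gave 9 to 254, 3 to 80 and 2 to 17. With the replicate number as a block 76, 23 and 4 genes and 0 members passed, and the block changed no call of a member (of the partners, Actn1 did not pass, adjusted p = 0.0656). The deviations of same-numbered pools from their group means were not correlated alike in every pairing (correlations of -0.38 to -0.07 for KDM1A TG with C57BL/6, -0.25 to 0.01 for nonTG with C57BL/6 and 0.11 to 0.18 for KDM1A TG with nonTG), so the numbers were not taken to pair the pools.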

Other observations

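The members under the filter level were Col5a1, Mmp20, Adamts3, Col6a5, Col4a3, Adamts10, Adamts8, Mmp3, Adamts18, Itga5 and Mmp1b, with means over the arrays of 1.11 to 2.04. Col5a1, the main chain of collagen V, had 1.79, 1.88 and 2.11 in KDM1A TG, 2.10 and 2.68 in nonTG and 1.75, 2.00 and 2.00 in C57BL/6 pools. Mmp20, the enamel protease, had 1.79, 1.61 and 1.71 in KDM1A TG, 2.23 and 2.54 in nonTG and 1.76, 2.23 and 2.29 in C57BL/6 pools. These genes were not tested, being under the filter level. A second Mmp11 probeset gave a log2 change of 0.55 for KDM1A TG against C57BL/6, where the one used gave 0.07.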
